A study of Mus musculus with 8 samples.

Results

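The genes described here are Krt6a, Krt6b, Krt16 and Krt17, the stress keratins of mouse skin, in wound tissue with or without a nanoparticle treatment. They were taken by symbol from a table of RNA sequencing read counts. All 4 were found among its 18540 genes, and the table holds 54 keratin genes in all. The samples were wound skin of mice in 2 groups of 4, titled con and shiyan in the labels. The study describes the treated tissue as taken after 15 days of ZCZ, a composite of zinc peroxide and cerium dioxide inside the zinc imidazole framework ZIF-8, and its sample names match shiyan to Z1C2Z, the version with the higher proportion of cerium dioxide. In its wound experiments the composite was injected around the wound at a stated dose of 100 µg/kg, and controls received PBS. Those experiments used both C57BL and db/db mice with paired wounds on the back. The strain and age of the sequenced mice, and which samples came from the same mouse, were not given in the sources used here, so p-values measure only the spread between these samples, which may be partly technical. Samples carry their group and the number in the labels, which is 1, 2, 3 or 5 for a control and 1, 2, 4 or 5 for Z1C2Z, and values are listed in that order throughout.

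Keratins build the intermediate filaments of epithelial cells, and each filament is an obligate pairing of type I with type II chains. Krt6a and Krt6b encode type II chains, and Krt16 and Krt17 encode type I chains. Basal cells of resting epidermis rely on the type II chain Krt5 and the type I chain Krt14. Keratinocytes at a wound edge switch on the stress keratins soon after injury, and the same keratins are made without injury in parts of the hair follicle, in the nail bed and in the skin of the sole. Krt17 also belongs to the outer root sheath and other compartments of the hair follicle. In whole skin, fewer cells of a type and less RNA per cell cannot be told apart.

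Both type II members lie beside each other on chromosome 15 and both type I members lie beside each other on chromosome 11, each on the minus strand. In GRCm38, with GENCODE M21 gene models, Krt6a (Entrez 16687) spans chr15:101689910-101694307 and Krt6b (Entrez 16688) spans chr15:101676023-101680287. Krt16 (Entrez 16666) spans chr11:100246091-100248902 and Krt17 (Entrez 16667) spans chr11:100256217-100261029. The build used for the counts was not given in the sources used here, so these positions describe the reference only.

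How far the members can be told apart by short reads depends on their sequences. The coding sequences of Krt6a and Krt6b were identical at 97.8% of 1659 aligned bases, with an identical run of up to 280 bases. The most different stretch of 60 coding bases held 10 mismatches. It lies in exon 4 of both genes, at chr15:101692484-101692543 for Krt6a and chr15:101678303-101678362 for Krt6b, and is shown along the coding strand with the differing bases in capitals.
Krt6a: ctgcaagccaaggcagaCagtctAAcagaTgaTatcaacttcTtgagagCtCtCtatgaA
Krt6b: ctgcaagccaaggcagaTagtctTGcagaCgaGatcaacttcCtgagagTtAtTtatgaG

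Krt16 and Krt17 were identical at 77.6% of aligned coding bases, while Krt16 was closer to the constitutive Krt14, at 86.4%. The most different stretch of 60 coding bases between Krt16 and Krt17 lies in exon 5 of both, at chr11:100247141-100247200 for Krt16 and chr11:100257782-100257841 for Krt17, and held 25 mismatches, in capitals.
Krt16: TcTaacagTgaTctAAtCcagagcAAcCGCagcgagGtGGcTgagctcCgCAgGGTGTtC
Krt17: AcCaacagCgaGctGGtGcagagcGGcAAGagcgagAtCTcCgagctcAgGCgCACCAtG

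These stretches show where the pairs differ most. Elsewhere the overlap was larger. Of all windows of 100 bases along 1 reference transcript of each gene, Krt6a shared 34.0% exactly with another gene, Krt6b 30.6%, Krt16 24.3% and Krt17 0%. At 50 bases the shares were 49.5%, 50.1%, 37.6% and 3.99%. How reads that match more than one gene were counted is not given, so the split between Krt6a and Krt6b, and part of the Krt16 count, are uncertain, while Krt17 rests almost wholly on sequence of its own.

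Between 28856790 and 38974888 reads per sample were assigned to genes, and the 4 stress keratins took 0.239% to 0.593% of them. Every member had at least 14670 counts in every sample, so counting error was small beside the differences between samples. Levels are given as CPM, the counts of a gene relative to the library total, after TMM scaling, a correction for library composition. A gene was called higher or lower when edgeR's quasi-likelihood test gave a Benjamini-Hochberg adjusted p under 0.05 and a log2 fold change beyond 1 in size. By that rule 515 of the 15147 genes that passed the low-count filter were called, or 3.40%, with 326 higher and 189 lower in Z1C2Z. These counts depended on single samples, falling to 0 by edgeR without control-5, or without sample 1, 2 or 4 of Z1C2Z (3100 to 4208 genes at an unadjusted p under 0.05), and to 8 higher and 76 lower without control-2. None of the 4 stress keratins was called by edgeR, none reached an unadjusted p under 0.05, against 28.0% of all genes, and none was called by DESeq2. Without the limit on size, an adjusted p under 0.05 was reached by 8.13% of all genes and again by 0 of the 4. The control and Z1C2Z values of every member overlapped, whereas 17.3% of all genes tested had groups that did not overlap, and in 8.82% every Z1C2Z sample was the lower.

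Krt6a, the most abundant of the 4 in CPM and the type II partner of Krt16 in wound-edge keratinocytes, had 1105, 2029.5, 828 and 2170.3 CPM in the controls, in the order of their numbers. Under Z1C2Z it had 1353, 507, 565 and 1260.2 CPM. Control-5 and control-2 were highest, Z1C2Z-2 and Z1C2Z-4 were lowest, and the other Z1C2Z samples lay among the controls. The means were 1533 ± 667 CPM in control and 921 ± 447 in Z1C2Z (SD, n = 4 each), a fold of 0.601. The log2 fold change was -0.73 with an SE of 0.41 and a 95% interval from -1.65 to 0.19 (edgeR, adjusted p = 0.273, and p = 0.200 by an exact two-sided permutation test on log2 CPM). The groups could not be told apart within the spread between samples, and as a fold the interval runs from 0.318 to 1.14.

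Krt6b, the near-copy of Krt6a, repeated that order. It had 983, 1619.9, 589 and 1929 CPM in the controls and 1137, 445, 368 and 1126 CPM in Z1C2Z, in the same sample order. Again control-5 and control-2 were highest and Z1C2Z-2 and Z1C2Z-4 lowest. The means were 1280.3 ± 606 and 769 ± 420 CPM (SD, n = 4 each), and the log2 fold change was -0.74 with an SE of 0.46 and an interval from -1.78 to 0.30 (edgeR, adjusted p = 0.328, exact permutation p = 0.229). Because reads from the shared stretches may be split between both genes, the match between Krt6a and Krt6b is not independent evidence.

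Krt16, the type I partner of both, had 807, 1601, 790.3 and 1418 CPM in the controls and 1035, 487, 503 and 1003 CPM in Z1C2Z. The same samples stood at each end, with control-2 rather than control-5 on top. The means were 1154 ± 417 and 757 ± 303 CPM (SD, n = 4 each), with a log2 fold change of -0.61, an SE of 0.33 and an interval from -1.36 to 0.14 (edgeR, adjusted p = 0.264, exact permutation p = 0.171). Krt16, a chain of the other keratin type, shared no window of 50 bases with Krt6a or Krt6b in the reference, so it is a separate measurement from both.

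Krt17 ran differently. It had 710.4, 714, 615 and 870.0 CPM in the controls and 685, 880.3, 1144 and 817 CPM in Z1C2Z. Z1C2Z-4 and Z1C2Z-2, the samples with the least Krt6a, Krt6b and Krt16, were the highest, and control-3 was the lowest. The means were 727 ± 105.5 and 881 ± 193 CPM (SD, n = 4 each), and the log2 fold change was 0.28 with an SE of 0.17 and an interval from -0.10 to 0.66 (edgeR, adjusted p = 0.312, exact permutation p = 0.257). The interval reaches no further than a fold of 1.58 upward and 0.932 downward, so Krt17 is the member whose change is bounded most narrowly.

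**Figure D1:**
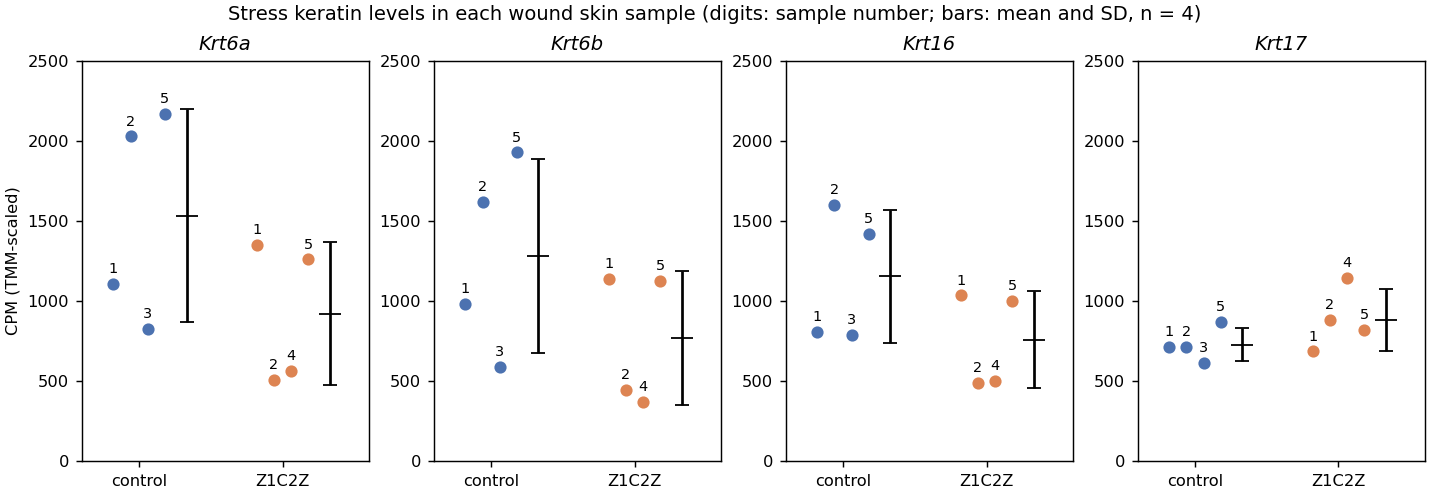
Level of each stress keratin in each of the 8 samples, in TMM-scaled CPM, with the group mean and SD (n = 4). Z1C2Z-2 and Z1C2Z-4 are the lowest samples for Krt6a, Krt6b and Krt16 and the highest for Krt17.

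Samples Z1C2Z-2 and Z1C2Z-4 therefore carried most of the distance between the groups. With both left out, a choice made after seeing the data, the log2 fold changes were -0.23 for Krt6a, -0.18 for Krt6b, -0.18 for Krt16 and 0.05 for Krt17. No gene of the whole table was then called by edgeR, although 1980 had an unadjusted p under 0.05, and the counts of called genes given below all fall to 0 without these 2 samples. They were also the samples with the most hair follicle RNA. The summed level of 10 markers of growing hair follicles, all of them detected, was 9670 CPM in Z1C2Z-2 and 9619 in Z1C2Z-4, against 6394 in Z1C2Z-1, 3056 in Z1C2Z-5 and 406 to 2497 in the controls.

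The spread within groups set Krt17 apart as well. From the lowest to the highest control, Krt6a varied 2.62-fold, Krt6b 3.28-fold and Krt16 2.03-fold, but Krt17 only 1.41-fold. The SD of log2 CPM among controls was larger than that of 91.8% of genes for Krt6a, 93.8% for Krt6b and 86.6% for Krt16, but of 47.8% for Krt17. Within Z1C2Z the corresponding shares were 95.2%, 96.6%, 92.5% and 73.9%. Krt6a, Krt6b and Krt16 were thus among the most variable genes between samples of the same group, and Krt17 was near the middle of all genes in the controls.

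Ratios within a sample cancel the scaling of that sample and show how closely the members moved together. The ratio of Krt6a to Krt6b lay between 1.12 and 1.53 in all 8 samples, with an SD of 0.17 on the log2 scale. Krt6a to Krt16 was nearly as steady, with a log2 SD of 0.19 over the 8 samples, although they are chains of different type from different chromosomes. Krt6b to Krt16 was less steady, at 0.732 to 1.36 with a log2 SD of 0.32. The ratio of Krt6a to Krt17 was not steady. It was 1.55, 2.84, 1.35 and 2.49 in the controls and 1.98, 0.576, 0.494 and 1.54 in Z1C2Z, a log2 SD of 0.92. The ratio of Krt16 to Krt17, both type I, was 1.14, 2.24, 1.28 and 1.63 in the controls and 1.51, 0.553, 0.440 and 1.23 in Z1C2Z. Krt17 thus exceeded all 3 fellow members in Z1C2Z-2 and Z1C2Z-4, and in no other sample.

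Across groups, the log2 ratio of Krt6a to Krt17 averaged 0.97 in control and -0.05 in Z1C2Z, a difference of -1.02. The differences were -1.04 for Krt6b to Krt17 and -0.89 for Krt16 to Krt17, while those among Krt6a, Krt6b and Krt16 lay between -0.15 and 0.02. Over the 10 ratios compared, the smallest exact permutation p was 0.143 and the smallest Benjamini-Hochberg adjusted p was 0.286, where a design of 4 against 4 can reach 0.0286. All 10 ratios overlapped between the groups, so no change in the balance among the members was shown.

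**Figure D2:**
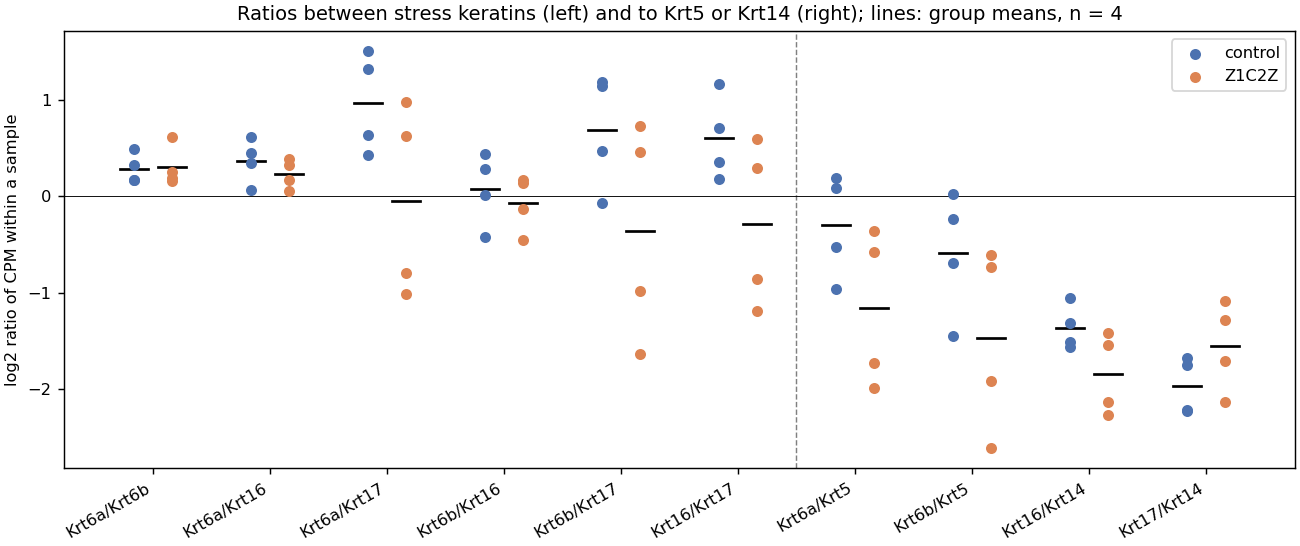
Log2 ratios of CPM within each sample (points) with group means (lines, n = 4), between stress keratins on the left and to the constitutive Krt5 or Krt14 on the right. Ratios among Krt6a, Krt6b and Krt16 stay between -1 and 1, and the ratios to Krt17 are lowest in 2 Z1C2Z samples, Z1C2Z-2 and Z1C2Z-4.

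Krt5 and Krt14, the keratins of basal keratinocytes, served as the reference for basal epithelium. Krt5 averaged 1752 ± 178 CPM in control and 1884 ± 258 in Z1C2Z (SD, n = 4 each), with a log2 fold change of 0.11 and an SE of 0.13 (edgeR, adjusted p = 0.621). Krt14 averaged 2935 ± 932 and 2565 ± 369 CPM, with a log2 fold change of -0.19 and an SE of 0.22 (edgeR, adjusted p = 0.600). Neither was called. Set against Krt5, Krt6a stood at 0.695, 1.06, 0.515 and 1.14 in the controls and at 0.780, 0.302, 0.251 and 0.673 in Z1C2Z, a mean log2 difference of -0.86 (exact permutation p = 0.143, adjusted p = 0.286). The log2 ratio of Krt16 to Krt14 differed by -0.48 and that of Krt17 to Krt14 by 0.41, each with the same exact permutation p of 0.143.

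Levels of different genes were compared per kilobase of exon, since a longer transcript gives more reads. In the controls the type I member Krt16 was the highest of the 4, at 738 ± 267 CPM per kb, followed by Krt6a at 634 ± 276, Krt6b at 573 ± 271 and Krt17 at 469 ± 68.0 (SD, n = 4). In Z1C2Z, Krt17 stood first, at 568 ± 124 CPM per kb, followed by Krt16 at 484 ± 193, Krt6a at 381 ± 185 and Krt6b at 344 ± 188. Neighbours in both orders differ by less than their spread. By group mean Krt5 stood above all 4 on the same scale, at 797 ± 80.8 and 858 ± 117 CPM per kb, and Krt14 above Krt5, at 1669 ± 530 and 1459 ± 210.2. By sample, however, Krt16 exceeded Krt5 in control-2 and control-5, and Krt6a exceeded it in control-5.

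Because filaments need both types, the members were also viewed within their type, as a description chosen after seeing the data. Krt6a and Krt6b made up 45.3% to 67.1% of the summed Krt5, Krt6a and Krt6b level per kb in the controls, and 28.0% to 57.5% in Z1C2Z. Krt16 and Krt17 together made up 39.0% to 44.6% of the summed Krt14, Krt16 and Krt17 level in the controls and 39.2% to 43.4% in Z1C2Z. The stress share of the type I chains thus stayed within a narrow range in all 8 samples while that of the type II chains did not. Within the 4 members, Krt17 took 16.8% ± 4.72 of the summed CPM in control and 29.5% ± 13.8 in Z1C2Z (SD, n = 4 each), with 38.0% in Z1C2Z-2 and 44.3% in Z1C2Z-4.

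**Figure D3:**
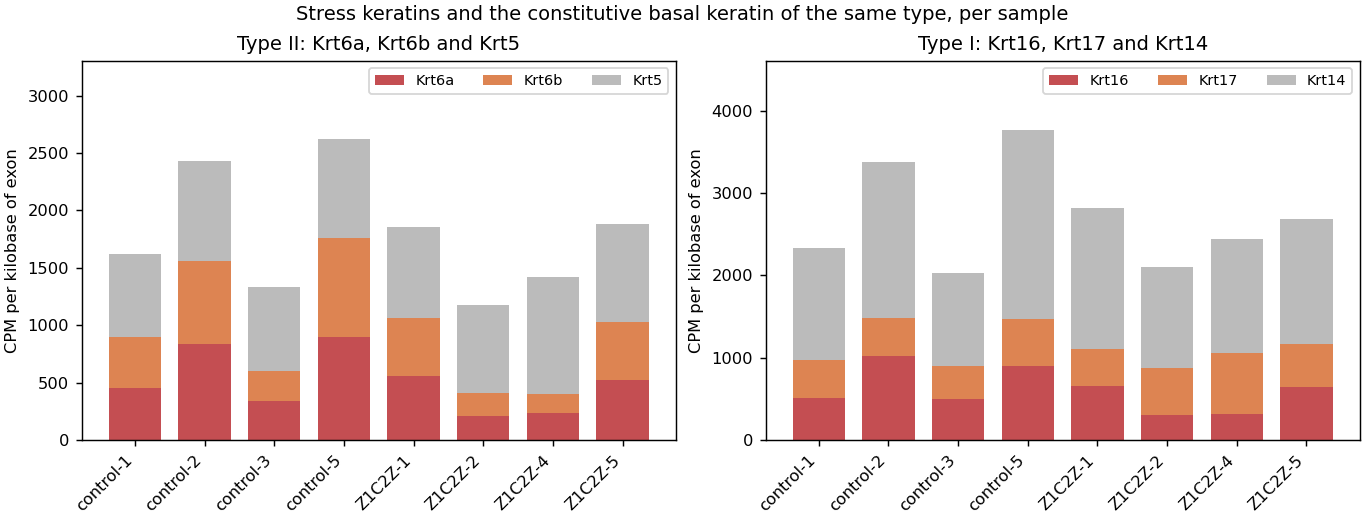
Stacked bars of the type II keratins Krt6a, Krt6b and Krt5 (left) and of the type I keratins Krt16, Krt17 and Krt14 (right) in each of the 8 samples, in CPM per kilobase of exon. Krt6a and Krt6b make up 28.0% to 67.1% of the type II bars and Krt16 and Krt17 make up 39.0% to 44.6% of the type I bars.

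The genes whose profile over the 8 samples was most like each member were found by the root mean square difference of log2 CPM after centring each gene on its own mean. For Krt6a the closest of all genes tested were Krt6b, at 0.16, and Krt16, at 0.18, followed by Nol4l, Nfasc and Kcnma1 at 0.20 to 0.24. For Krt16 the closest were Svep1, Kcnj15, Tll1, Nav1 and Krt6a, at 0.17 to 0.18, while Krt6b stood at rank 179, at 0.30. For Krt6b, the closest included Krt6a, Nol4l, Gldc and Krt16, at up to 0.30. Krt17 stood at rank 10819 for Krt6a, 11048 for Krt6b and 11016 for Krt16.

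The profile of Krt17 was matched by other genes, with Spr, Pfdn6, Lsm4, Klhl25 and Tmem158 the closest, at 0.08 to 0.10. Genes that vary little lie close to each other on this measure, and Krt17 varied least of the 4. From Krt17, the fellow members stood at ranks 13679 for Krt16, 14201 for Krt6a and 14407 for Krt6b. These likenesses rest on 8 samples that share group and tissue makeup, and are given as a description.

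The stress keratins were then placed among all keratin genes. Of the 48 keratin genes that passed the low-count filter, 22 were called higher in Z1C2Z and 0 lower by edgeR, where 2.15% of all genes tested were called higher and 1.25% lower. Their median log2 fold change was 2.08, against 0.01 over all genes tested. Negative log2 fold changes were seen for only 5 of the 48, namely Krt6a, Krt6b, Krt16, Krt14 and Krt24, with Krt24 at -0.07 (SE 0.49). These 5 are listed by the sign of their own values, and the members were chosen with earlier results of these data known. Among all genes tested, 6.30% had a lower log2 fold change than Krt6a, 8.89% than Krt16 and 81.2% than Krt17.

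The keratins called higher were nearly all those of the hair. Of 8 tested keratins of the companion layer and inner root sheath, the sleeve around a growing hair, 6 were called higher. Krt75, which marks the companion layer where Krt6a is also made without injury, had 42.2, 67.2, 82.1 and 34.4 CPM in the controls and 174, 269.7, 264.3 and 115 CPM in Z1C2Z, without overlap. It rose by a log2 fold change of 1.87 with an SE of 0.34 (edgeR, adjusted p = 0.0300). Krt28, Krt73 and Krt25, keratins of the inner root sheath, rose by 2.33, 2.04 and 2.45 on the log2 scale. Of the 16 keratins of the hair shaft, 14 were called higher, among them Krt35 at 2.47, Krt85 at 2.70, Krt34 at 4.83 and Krt81 at 4.78 on the log2 scale.

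Few of the keratins listed as epidermal were called. Of 9 such keratins 1 was called, Krt2, at under 5 CPM in every sample, and 8 of 9 had a log2 fold change above 0, with a median of 0.38. Next after Krt2 came Krt15, at 0.86 (SE 0.31, edgeR adjusted p = 0.108), which is also listed below as an outer root sheath marker. Krt10 and Krt1, which replace Krt5 and Krt14 as cells leave the basal layer, had log2 fold changes of 0.54 and 0.27 with SEs of 0.29 and 0.17 (edgeR, adjusted p = 0.257 and 0.337). None of 6 keratins of simple epithelia was called, but all 6 had a log2 fold change above 0. Their median was 0.997, with Krt23 at 1.16 and Krt7 at 0.75. Krt17, at 0.28, lay close to Krt1 on this scale, and Krt6a, Krt6b and Krt16 lay below every epidermal keratin tested.

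**Figure D4:**
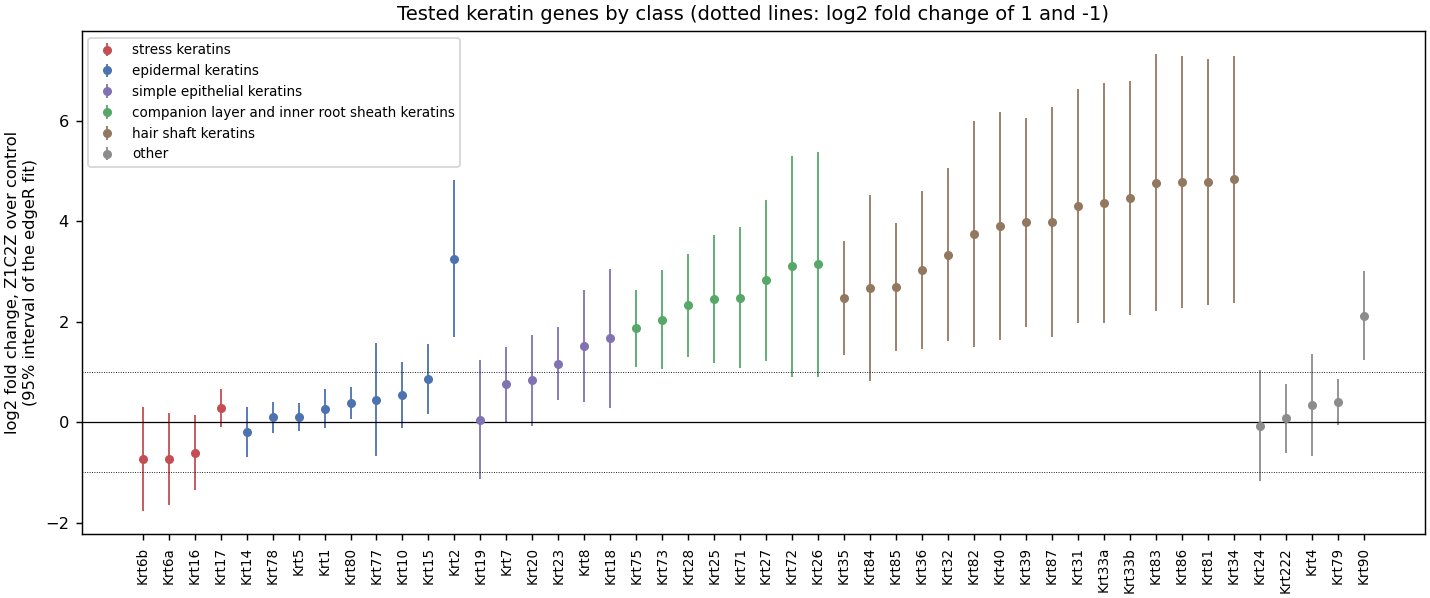
Log2 fold change, Z1C2Z over control, of the 48 tested keratin genes with 95% intervals of the edgeR fit, coloured by where the keratin is made, with dotted lines at 1 and -1. The hair shaft keratins and those of the companion layer and inner root sheath lie above 1, and Krt6a, Krt6b and Krt16 lie below 0 with intervals that cross it.

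Genes that keratinocytes switch on with the stress keratins were next examined. Of 32 genes of the activated keratinocyte list, all of them tested, 7 were called lower and 0 higher, against 1.25% and 2.15% of all genes, and 27 had a log2 fold change under 0, with a median of -0.86. Groups did not overlap in 10 of the 32 that were lower in Z1C2Z and in 1 that was higher, against 8.82% and 8.45% of all genes tested. Cd44, a hyaluronan receptor, had 783, 719.9, 853 and 996 CPM in the controls and 403, 369, 409 and 485 CPM in Z1C2Z, without overlap, and fell by 1.01 on the log2 scale with an SE of 0.13 (edgeR, adjusted p = 0.0280). Plaur, the urokinase receptor of migrating cells, averaged 44.4 ± 22.4 CPM in control and 11.3 ± 4.18 in Z1C2Z, and fell by 1.97 (SE 0.38, adjusted p = 0.0303).

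Itga5, the fibronectin-binding integrin chain, fell by 1.70 (SE 0.34) and Lcn2, an iron-binding defence protein, fell by 2.18 (SE 0.43), both with an adjusted p of 0.0303. Hbegf was also called lower. Several of these genes, among them Cd44, Plaur and Itga5, are made by fibroblasts, leukocytes or endothelial cells as well as by keratinocytes. The stress keratins were not part of this list. Their log2 fold changes of -0.61 to -0.74 for Krt6a, Krt6b and Krt16 lay close to its median.

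Ligands and receptors of the EGF family drive stress keratin expression in keratinocytes. Of 10 tested, 2 were called lower and 0 higher, against 1.25% and 2.15% of all genes, with Erbb4 below the filter. The median log2 fold change was -0.08, and 5 of the 10 lay above 0. Epgn, the ligand epigen, had 186, 75.9, 92.2 and 174 CPM in the controls and 26.9, 22.2, 22.4 and 35.3 CPM in Z1C2Z, and fell by 2.31 on the log2 scale with an SE of 0.31 (edgeR, adjusted p = 0.0280). Hbegf, the heparin-binding ligand, fell by 1.41 with an SE of 0.35 (adjusted p = 0.0449). Among controls both ligands were highest in control-1 and control-5, whereas Krt6a was highest in control-2 and control-5. Within Z1C2Z both ligands and Krt6a were higher in Z1C2Z-1 and Z1C2Z-5 than in Z1C2Z-2 and Z1C2Z-4.

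Of 21 transcription regulators linked to stress keratin genes, 1 was called, a share near the 3.40% of all genes tested. Fosb, an AP-1 subunit induced early by stress, had 19.8, 3.83, 18.2 and 44.5 CPM in the controls and 2.17, 3.34, 2.18 and 4.38 CPM in Z1C2Z, and fell by 2.84 (SE 0.62, edgeR adjusted p = 0.0339), with groups that overlapped through control-2. The median of the list was -0.34. Groups did not overlap in 6 of the 21 that were lower in Z1C2Z and in 2 that were higher, against 8.82% and 8.45% of all genes tested. Control-2, low in Fosb, was among the highest samples for Krt6a, Krt6b and Krt16.

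Of 20 tested genes of the cytokine inputs to keratinocytes, 3 were called lower and 0 higher, against 1.25% and 2.15% of all genes. A log2 fold change under 0 was seen for 17 of the 20, against 7414 of all 15147 genes tested. The list median was -0.56. Groups did not overlap in 9 of the 20 that were lower in Z1C2Z and in 1 that was higher, against 8.82% and 8.45% of all genes tested. Il1r1, the interleukin 1 receptor, averaged 209 ± 43.9 CPM in control and 86.5 ± 23.7 in Z1C2Z and fell by 1.28 (SE 0.21, edgeR adjusted p = 0.0299). Osmr, the oncostatin M receptor, fell by 1.38 (SE 0.28, adjusted p = 0.0306). Il6 fell by 5.51 (SE 1.23, adjusted p = 0.0356), from 174, 5.19, 7.49 and 150 CPM in the controls to 0.728 to 3.47 CPM in Z1C2Z, so 2 of 4 controls carried most of its control level. Il17a, Il17f, Il17c, Il22 and Ifng were below the filter. Fibroblasts and leukocytes also make these receptors and Il6.

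None of 15 genes for desmosome, hemidesmosome and plakin proteins, which anchor keratin filaments, was called, 10 had a log2 fold change above 0, and the median was 0.24. In 5 of the 15 the groups did not overlap, all higher in Z1C2Z, against 8.45% of all genes tested. Dsp, which ties keratin to desmosomes, averaged 1722 ± 217.5 and 2149 ± 366 CPM (log2 fold change 0.32, SE 0.15, edgeR adjusted p = 0.199), and Pkp1, a desmosomal plakophilin, had 0.26 (SE 0.12, adjusted p = 0.204). None of 10 cell cycle genes was called, with Mki67 at 0.40 (SE 0.14) and Top2a at 0.22 (SE 0.10).

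Markers of the cell types that wound skin could hold differed between the groups, and their part in the levels of the stress keratins was not tested except where values are given. All markers were above 0 in at least 1 sample. Of 10 growing hair follicle markers 8 were called higher and all 10 had a log2 fold change above 0, among them Msx2 at 2.09, Hoxc13 at 2.11, Lef1 at 1.74 and Dlx3 at 1.55 on the log2 scale. Of 7 outer root sheath markers 0 were called, at 640 to 920 summed CPM in control and 854 to 1221 in Z1C2Z. A log2 fold change above 0 was seen for 6 of the 7, with a median of 0.76 and Krt15 at 0.86. The exception was Cd34, which endothelial and stromal cells also make, at -0.34. Groups did not overlap in 3 markers higher in Z1C2Z and 1 lower, Cd34, against 8.45% and 8.82% of all genes tested. Krt17 is a keratin of this sheath.

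Of 7 basal keratinocyte markers 0 were called, at 4419 to 7043 summed CPM in control and 4593 to 5798 in Z1C2Z, and of 9 markers of differentiating epidermis 0 were called, at 7714 to 13048 and 12019 to 16921. Of 9 skeletal muscle markers 0 were called by size, all 9 had a log2 fold change under 0, and their summed level was 3202 to 5935 in control and 2701 to 2989 in Z1C2Z. Acta1 stood at -0.86 (edgeR, adjusted p = 0.0303) and Myh1 at -0.61 (adjusted p = 0.0341). Groups did not overlap in 6 of the 9, all lower in Z1C2Z, against 8.82% of all genes tested. Of 7 tested neutrophil markers 0 were called, at 572 to 1504 and 169 to 656 summed CPM, with S100a9 at -1.36 (edgeR, adjusted p = 0.0795) and S100a8 at -1.27 (adjusted p = 0.0804), which activated keratinocytes also make. Ly6g was below the filter.

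The remaining lists held few calls. None of 6 macrophage, 6 fibroblast, 5 endothelial and 5 adipocyte markers was called, with median log2 fold changes of -0.34, -0.55, -0.80 and -0.47, and among them Lyz2 stood at -0.24, Csf1r at -0.37, Col3a1 at -0.53, Col1a2 at -0.37, Pecam1 at -0.80, Cdh5 at -0.91, Fabp4 at 0.06 and Adipoq at -0.52. Of 6 sebaceous gland markers 1 was called higher, Mc5r, at 1.05.

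Adding a sample's basal keratinocyte marker score to the fit, which was chosen after seeing the data, left log2 fold changes of -0.67 for Krt6a (SE 0.23, edgeR adjusted p = 0.102), -0.64 for Krt6b, -0.56 for Krt16 (adjusted p = 0.121) and 0.29 for Krt17. The growing hair follicle score did not overlap between the groups. Adding it instead gave 0.67 for Krt6a (SE 0.65), 1.02 for Krt6b (SE 0.68), 0.28 for Krt16 (SE 0.58) and 0.39 for Krt17 (SE 0.37). Each had an edgeR adjusted p of 1.00. The sign of Krt6a, Krt6b and Krt16 thus differed between fits, but with SEs this wide neither direction was shown. Treatment and hair follicle content cannot be told apart in these 8 samples.

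**Figure D5:**
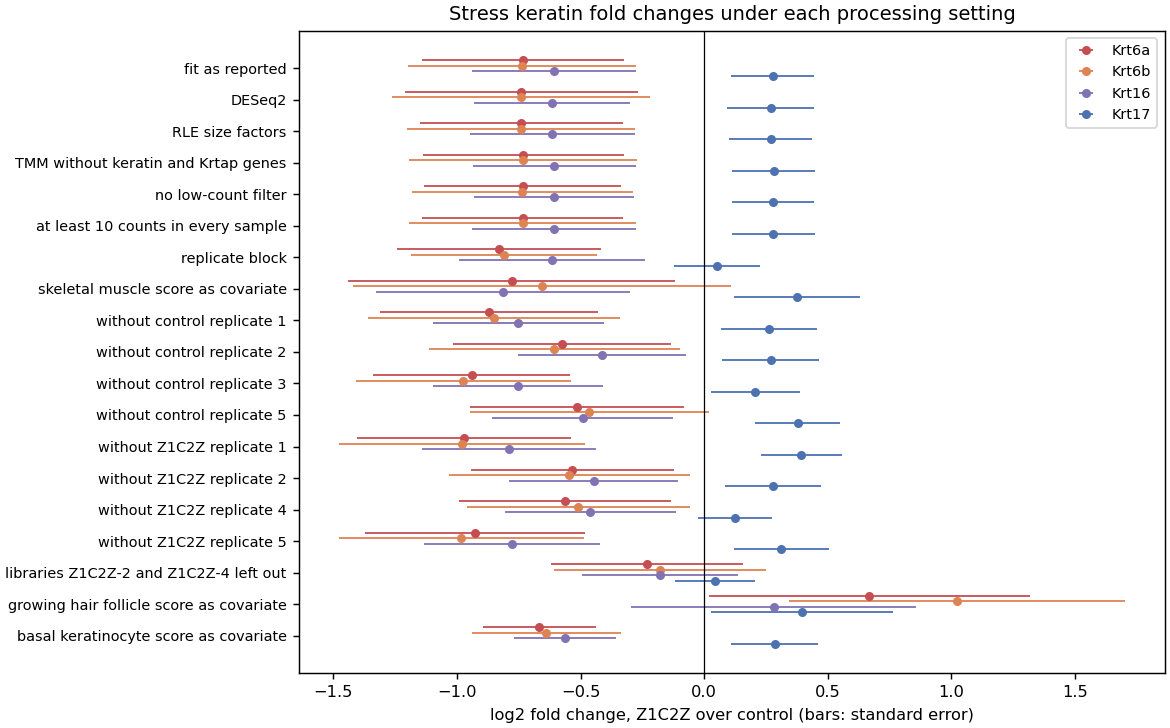
Log2 fold change of each stress keratin, Z1C2Z over control, with its standard error, in the fit as reported and under each alternative. Krt6a, Krt6b and Krt16 lie below 0 except with the growing hair follicle score in the fit, where they stand at 0.67, 1.02 and 0.28, and Krt17 lies above 0 throughout.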

How the data were processed

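Gene-level RNA sequencing read counts of 8 wound skin samples were analysed as deposited, as raw whole numbers with no normalization by the authors. Ribosomal RNA had been depleted and libraries prepared with a strand-marking protocol. The aligner, counting tool, genome build, strand setting and treatment of multi-mapping reads were not given in the sources used here. In edgeR 4.0.16 (R 4.3.3), genes were filtered with filterByExpr, scaled by TMM and tested by the quasi-likelihood F test on group alone, with Benjamini-Hochberg adjustment over 15147 genes. Log2 CPM used a prior count of 2. Exact two-sided permutation tests covered all 70 arrangements. Identity and shared windows came from GENCODE M21 transcripts (GRCm38). Alternatives were DESeq2 1.42.0 and other scalings, filters, covariates, a replicate block and left-out samples.

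The members and lists were chosen with earlier results of these data known. Named besides the members were Krt5, Krt14, up to 4 called genes per list by smallest p or, with none called, the 2 most abundant, and the 5 genes most like each member; some genes that this rule or the lists take in are not reported here by name. Samples of the same group differed by more than sampling noise. The statistics were tested on simulated data.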

Additional observations from a re-analysis of the deposited data

How the results depend on the processing

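None of the 4 stress keratins was called under any of 18 alternatives, and their directions held in 69 of 72 alternative values. The exceptions came from adding the growing hair follicle score, where Krt6a stood at 0.67, Krt6b at 1.02 and Krt16 at 0.28 on the log2 scale; that score did not overlap between groups, and the cause was not tested. With 1 sample left out at a time, log2 fold changes ran from -0.97 to -0.52 for Krt6a, -0.98 to -0.46 for Krt6b, -0.79 to -0.41 for Krt16 and 0.12 to 0.39 for Krt17, and an unadjusted p under 0.05 appeared for Krt6a without control-3 and for Krt17 without Z1C2Z-1. At the spread within groups, leaving out 1 of 4 samples could not have reversed a direction. Those fits are part of the 69 and test nothing about direction. All 100 alternative values of the 10 ratios moved by less than the spread between samples. Leaving out at most 1 of 4 samples per group could not have moved them further, so this count tests nothing. The Krt6a to Krt6b difference ran from -0.09 to 0.08 and changed sign.

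The number of genes called higher ran from 0 to 463 and the number called lower from 0 to 316 with 1 sample left out. By edgeR 0 were called when control-5 was left out (3223 at an unadjusted p under 0.05), or from Z1C2Z sample 1 (4208), sample 2 (3137) or sample 4 (3100), and without control-2 it called 8 higher and 76 lower. Without both Z1C2Z-2 and Z1C2Z-4 edgeR called 0 higher and 0 lower (1980 at an unadjusted p under 0.05), and with the hair follicle score 0 and 0 (530). With the skeletal muscle score 5 were called higher and 11 lower, and DESeq2 called 333 lower. The 24 called genes named in the report were picked because they were called, so leaving out 1 sample could hardly reverse them, and none reversed. In the 4 fits with no calls 0 of the 24 stayed called, and 5 of 24 without control-2. Without control-1, control-3 or Z1C2Z-5, also with 1 sample left out, edgeR called 282, 354 and 463 genes higher and 249, 228 and 316 lower. The cause of these losses was not tested.

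Whether replicate numbers shared by both groups pair the samples was not settled. The correlations of deviations between same-numbered samples were -0.101, -0.0623 and 0.323, and 3 of 6 samples correlated best with their own number. So few samples cannot exclude pairing. With a replicate block on samples 1, 2 and 5, Krt6a stood at -0.83, Krt6b at -0.81, Krt16 at -0.62 and Krt17 at 0.05 on the log2 scale, 257 genes were called higher and 184 lower, and the counts of called genes became 0 for epidermal keratins, 7 for cytokine inputs, 1 for skeletal muscle markers and 0 for sebaceous gland markers. Of the 24 named calls 20 held with the block; Krt2 (log2 fold change 3.12, edgeR adjusted p = 0.0529), Cd44 (-0.99, adjusted p = 0.0217, inside the limit on size), Fosb (-2.33, adjusted p = 0.116) and Mc5r (0.87, adjusted p = 0.157) were not called. Each member had at least 14670 counts in every sample.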

Other observations

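The share of reads in the 4 stress keratins was 0.352%, 0.592%, 0.276% and 0.593% in the controls, in the order of their numbers, and 0.439%, 0.239%, 0.264% and 0.434% in Z1C2Z. The controls thus fell into a higher and a lower pair, as did the Z1C2Z samples. Summed over the type II and type I stress keratins per kilobase of exon, the ratio of type II to type I was 0.921, 1.05, 0.672 and 1.20 in the controls and 0.969, 0.465, 0.376 and 0.878 in Z1C2Z, so the type II chains exceeded the type I chains only in control-2 and control-5. These values describe 8 samples and were not tested.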
